A study of Mus musculus with 27 samples.

Results

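Lungs that had been given house dust mite extract (HDM) and then combustion products were compared with lungs given saline vehicle and then the same combustion products. The comparison takes 14 of the 27 libraries of the study, chosen by label: 7 whose title ends in HDM/CP (called HDM_CP here) and 7 whose title ends in PBS/CP (PBS_CP), across all genes measured. All mice were male wild-type C57Bl/6 animals of 7 to 8 weeks. HDM_CP mice received 5 oropharyngeal doses of 10 µg HDM in 50 µl, spaced by 2 to 3 days, and PBS_CP mice received 50 µl of phosphate-buffered saline (PBS) on that schedule. Both groups were then given combustion products (CP), 200 µg in 100 µl of saline at 2 mg/ml, 24 h after the fifth dose. Whole lungs were frozen 24 h later and sequenced with polyA selection. The other 13 libraries, 6 HDM_SAL and 7 PBS_SAL, had the same HDM or PBS schedule followed by 100 µl of saline without CP. Every library here that is called HDM_CP or PBS_CP therefore carries the CP dose, and the comparison holds no lung without it. A library is named by its group and the number at the start of its title. The labels give each library as a separate sample but do not name the animals, so p-values measure the spread between these samples.

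House dust mite contains proteases and other allergens that act on the airway epithelium, which releases alarmins such as interleukin-33. Type 2 lymphocytes then produce interleukin-13, which acts through the STAT6 transcription factor to turn airway secretory cells into mucus-producing goblet cells and to drive alternative activation of macrophages. Chemokines made by these cells draw eosinophils, monocytes and T helper 2 cells into the lung.

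Levels are given as counts per M (mega) counts, or CPM, from the deposited estimated counts, and a level compares libraries for a gene, not one gene with another. Differences are log2 fold changes ± standard error from edgeR's quasi-likelihood test, positive where HDM_CP was higher. A gene was called when its p-value, adjusted over all genes tested (Benjamini-Hochberg), was under 0.05, and "rose" or "fell" is used of called genes. Gene positions are on the GRCm39 build as deposited. In bulk tissue, fewer cells of a type and less RNA per cell cannot be told apart.

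The library PBS_CP 57 stood apart from its group, most clearly in goblet and ciliated cell genes, and is treated before the results. It carried PBS in its label but held 515 CPM of Clca1, a mucus-associated gene, where the other 6 PBS_CP libraries held 4.10 to 11.1 CPM. Its mean log2 CPM over 18 goblet cell and mucus genes was 3.24, against 0.80 to 1.53 in the other PBS_CP libraries and 2.12 to 4.45 in HDM_CP. Its score for ciliated cells, 4.48, was also above all other PBS_CP libraries and all HDM_CP libraries. Of the 1220 genes called higher without it, 21.5% were nearer to the HDM_CP mean than to the mean of the other PBS_CP libraries in PBS_CP 57. Each other PBS_CP library, treated the same way, had 8.0% (PBS_CP 58) to 19.9% (PBS_CP 102). Among genes called lower the share was 23.35% in PBS_CP 57, below PBS_CP 75, 76 and 102 (24.6%, 25.45% and 26%). For PBS_CP 57 the count among higher genes was 12 of 15 for goblet genes, 4 of 4 for ciliated cell genes and 7 of 27 for cell cycle genes. The cell cycle count was larger in PBS_CP 101 (18 of 28) and PBS_CP 102 (8 of 29). Immune lists were uneven, with 0 of 17 recruited macrophage genes, 0 of 12 dendritic cell genes and 0 of 6 genes of MHC class II presentation nearer to HDM_CP. The count was 3 of 12 for type I interferon genes, 2 of 9 for type 2 and monocyte chemokines, 2 of 5 for leukotriene and prostaglandin D2 genes and 1 each for eosinophil, neutrophil and T helper cell genes. Results are therefore given with all 14 libraries, and values without PBS_CP 57 are added where a call, a list count or a fold change moved most.

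All 14 libraries summed to between 56.3 M and 84.5 M estimated counts, as did the saline libraries, and mitochondrial genes held 2.10% to 2.78% of the counts in the 14. A first principal component with 18.3% of the variance separated all HDM_CP from all PBS_CP libraries, and PBS_CP 57 was the PBS_CP library nearest to HDM_CP on it.

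Of 24629 genes tested, 1378 rose (5.6%) and 560 fell (2.27%) in HDM_CP against PBS_CP. Most of the large changes were increases, with 403 genes higher and 22 lower by at least 2-fold. Without PBS_CP 57, 1220 of 24582 genes rose (4.96%) and 471 fell (1.92%). Of the genes that rose with all libraries, 1166 also rose without PBS_CP 57, which is 84.6% of the first list and 95.6% of the second. The same held for 442 of the genes that fell, 78.9% and 93.8% of the lists. The number that rose ranged from 950 to 1617 when each library was left out. The number that fell was less stable: it was 257 without HDM_CP 98, 288 without HDM_CP 49, 318 without HDM_CP 67, 371 without PBS_CP 58 and 983 without HDM_CP 66. In 348 genes all 7 HDM_CP libraries lay above all 7 PBS_CP libraries (1.41% of genes), and in 76 all lay below (0.309%).

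HDM_CP libraries differed among themselves in the strength of the change. Each library was placed on a line from the PBS_CP mean (0) to the HDM_CP mean (1), over genes called higher when that library was left out, and its median position is given as a description. HDM_CP 98 lay at 1.52, HDM_CP 67 at 1.43 and HDM_CP 49 at 1.29. HDM_CP 97 lay close to the group mean at 0.93. HDM_CP 66 and HDM_CP 96, both at 0.53, and HDM_CP 45, at 0.45, were about midway between the groups. The PBS_CP libraries spread much less, from -0.08 to 0.12, with PBS_CP 57 at 0.23. Library HDM_CP 66 lay nearer to PBS_CP in the genes that fell, at 0.09.

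**Figure D1:**
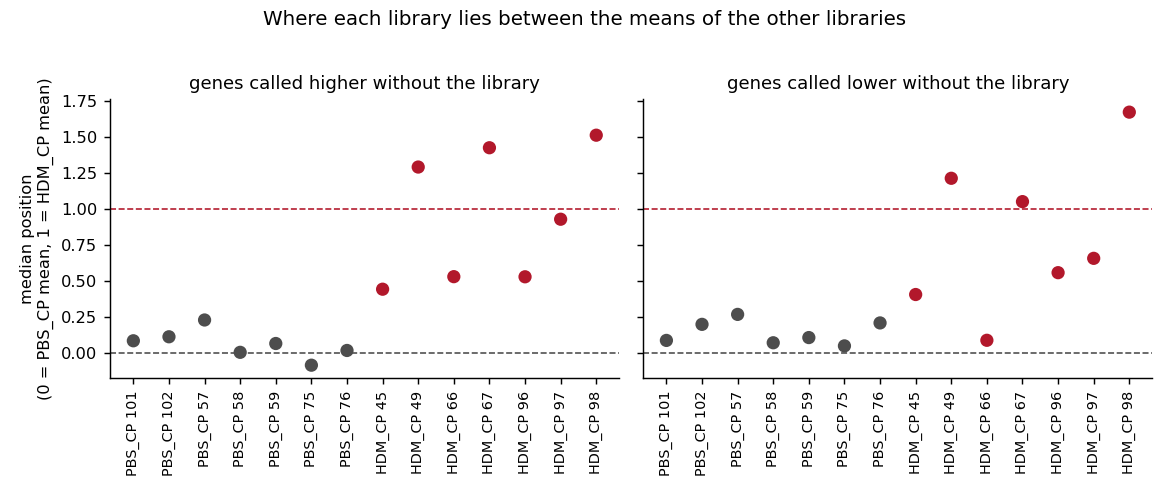
Median position of each library between the mean of the PBS_CP libraries (0, grey dashed line) and the mean of the HDM_CP libraries (1, red dashed line), over genes called higher (left) or lower (right) when the library itself was left out, with 1 point per library. Among the genes called higher the HDM_CP libraries spread from 0.45 to 1.52, and PBS_CP 57, at 0.23, is the highest of the PBS_CP libraries.

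Of 18 goblet cell and mucus genes 12 rose and 0 fell, with a median log2 fold change of 2.51 against 0.0019 over all genes tested. Muc5ac, the secreted mucin of goblet cells (chromosome 7, 141342709 to 141372968), lay at 13.2 to 118 CPM in HDM_CP (median 82.0) and at 1.87 to 42.6 CPM in PBS_CP (median 2.51). Only PBS_CP 57 overlapped HDM_CP, since the other PBS_CP libraries reached 3.11 CPM at most and the lowest HDM_CP library was HDM_CP 66. Muc5ac rose by 3.16 ± 0.77 (adjusted p = 0.0117), and by 4.90 ± 0.65 without PBS_CP 57 (adjusted p = 8.96e-05). Muc5b, the other main gel-forming airway mucin, rose by 2.82 ± 0.61, from a PBS_CP median of 17.2 CPM to an HDM_CP median of 179 CPM, and by 3.53 ± 0.59 without PBS_CP 57. Pigr, which encodes the receptor that carries polymeric immunoglobulin into secretions, rose by 2.17 ± 0.31 without overlap between the groups.

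Clca1, a secreted regulator of mucus and chloride transport in goblet cells (chromosome 3, 144709578 to 144738537), did not pass with all libraries. Its level was 71.2 to 1443 CPM in HDM_CP (median 782) and 4.10 to 515 CPM in PBS_CP (median 8.12). The PBS_CP mean of 79.9 ± 192 CPM (SD, n = 7) became 7.36 ± 2.56 CPM (SD, n = 6) without PBS_CP 57. The log2 fold change went from 3.28 ± 1.04 (adjusted p = 0.0544) to 6.72 ± 0.77 (adjusted p = 1.78e-05), and without HDM_CP 66 it was 3.49 (adjusted p = 0.0343). Fer1l6, a ferlin family gene, had a similar pattern, with 2.83 ± 0.98 (adjusted p = 0.0815) and 6.43 ± 0.86 without PBS_CP 57 (adjusted p = 8.53e-05). It was also called without HDM_CP 66 (adjusted p = 0.0497). Fcgbp, which encodes a protein of mucus, rose by 2.60 ± 0.74 (adjusted p = 0.0312) and by 4.36 ± 0.59 without PBS_CP 57. The call with all libraries had little margin, with adjusted p of up to 0.0649 when 1 library was left out. It was lost for each of 10 libraries (HDM_CP 49, 67, 96 and 98, and PBS_CP 58, 59, 75, 76, 101 and 102). Over the list, 15 of 18 rose without PBS_CP 57, with a median of 2.98, and 7 rose without HDM_CP 49, HDM_CP 98, PBS_CP 59 or PBS_CP 75.

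Of 9 ion and anion transport genes of the airway 4 rose and 0 fell, with a median of 0.08. Slc26a4, the apical chloride and bicarbonate exchanger pendrin (chromosome 12, 31569826 to 31609968), lay at 50.2 to 228 CPM in HDM_CP (median 174) and 4.65 to 28.7 CPM in PBS_CP (median 5.01), without overlap. It rose by 4.05 ± 0.48 (adjusted p = 2.5e-05), and by 4.75 ± 0.40 without PBS_CP 57, whose value was the highest of its group. The glucose transporter gene Slc5a1 rose by 2.35 ± 0.26. The chloride channel gene Cftr rose by 0.73 ± 0.13, and the basolateral cotransporter gene Slc12a2 by 0.24 ± 0.06.

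Chitinase-like and resistin-like genes, secreted by epithelium and macrophages in type 2 inflammation, rose in 7 of 8 members (median 2.84), and in 7 when any library was left out. Retnla, which encodes a resistin-like molecule of alternatively activated macrophages and airway epithelium (chromosome 16, 48662914 to 48664824), ranged from 1372 to 4706 CPM in HDM_CP (median 3562). In PBS_CP it ranged from 54.8 to 1288 CPM (median 98.9), and the highest of these, PBS_CP 57, came just under the lowest HDM_CP library, HDM_CP 66. Retnla rose by 3.63 ± 0.63 (adjusted p = 0.000744), or 4.97 ± 0.43 without PBS_CP 57. Chil3, a chitinase-like lectin of macrophages, rose by 2.96 ± 0.30 (adjusted p = 3.9e-06), from 188 to 442 CPM in PBS_CP to 1123 to 3817 CPM in HDM_CP, and PBS_CP 57 moved it little, to 3.08 ± 0.31. Chia1, the acidic chitinase, rose by 2.72 ± 0.31 and Chil4 by 3.82 ± 0.87. Chil4 rose by 5.73 ± 0.76 without PBS_CP 57, which held 59.5 CPM where the other PBS_CP libraries held at most 4.10 CPM. Chil3 and Chil4 are close paralogs, and the upstream counting may have shared reads between them. Retnlg, a resistin-like gene of neutrophils and other myeloid cells, rose by 2.17 ± 0.32.

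**Figure D2:**
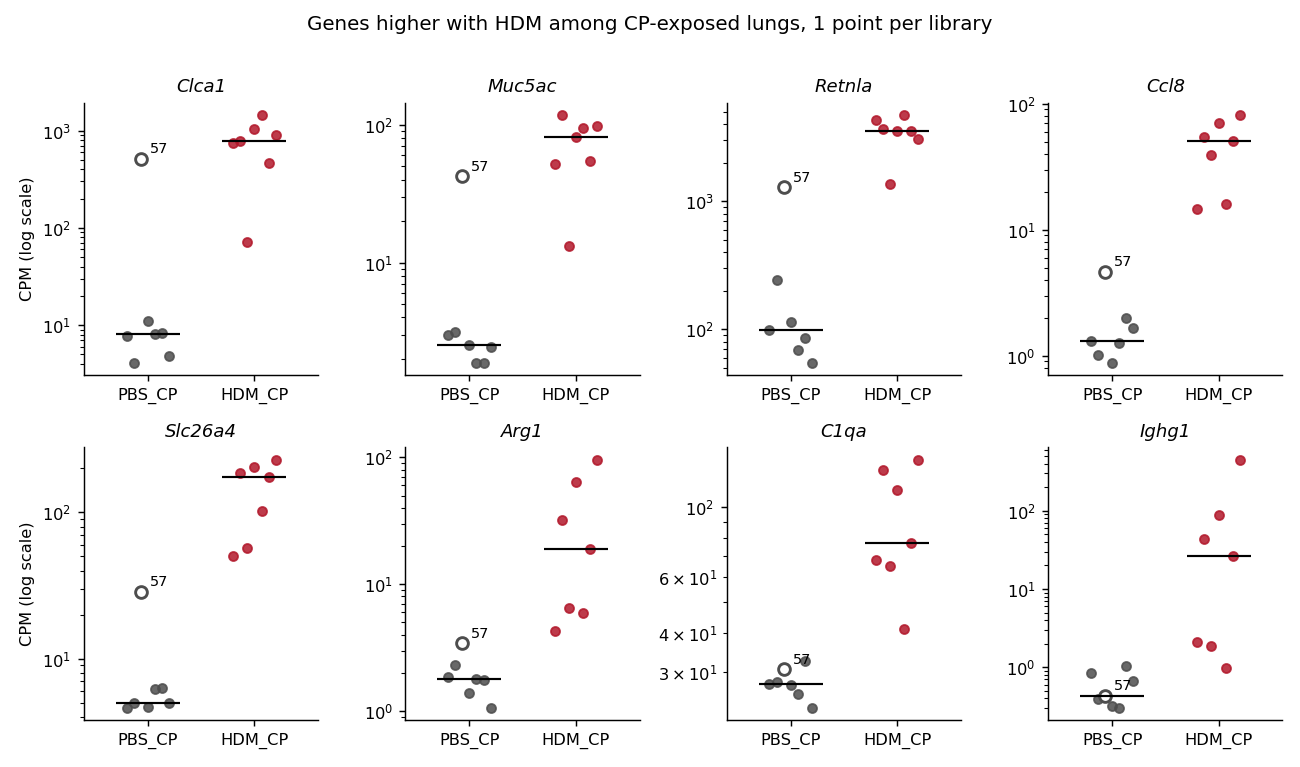
CPM on a log scale in the 7 PBS_CP (grey) and 7 HDM_CP (red) libraries for 8 genes, with 1 point per library and a line at the group median, and with PBS_CP 57 as an open circle. PBS_CP 57 lies among or near the HDM_CP libraries for Clca1, Muc5ac and Retnla, and with its own group for C1qa and Ighg1.

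Of 10 type 2 cytokine and alarmin genes 3 rose (2 without PBS_CP 57) and 0 fell, with a median of 0.56. Il13, the effector cytokine of mucus metaplasia, lay at 0.260 to 2.15 CPM in HDM_CP (median 0.909) and 0 to 0.228 CPM in PBS_CP (median 0.116). The groups did not overlap, and Il13 rose by 3.24 ± 0.74 (adjusted p = 0.00585). Il33, the epithelial alarmin, lay at 49.7 to 210 CPM in HDM_CP (median 173) and 62.0 to 77.5 CPM in PBS_CP. It rose by 1.17 ± 0.21 (adjusted p = 0.000787) although 1 HDM_CP library lay below every PBS_CP library. Il21, a cytokine of helper T cells, was weakly expressed and passed narrowly at 3.12 ± 0.97 (adjusted p = 0.0453). Leaving out PBS_CP 57 ended that call (adjusted p = 0.0802), as did leaving out HDM_CP 49, 67, 96, 97 or 98 or PBS_CP 58, 59, 75, 76 or 102, and the value was 4.52 without PBS_CP 101. The classic T helper 2 genes Il4, at 0.26 ± 0.19 (adjusted p = 0.511), and Il5, at 0.38 ± 0.28 (adjusted p = 0.503), did not pass. Their levels overlapped, with Il4 at 0.596 to 1.49 CPM in HDM_CP and 0.575 to 0.902 CPM in PBS_CP.

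Receptors and feedback genes of type 2 signalling rose in 8 of 17 members with a median of 0.29. Il13ra2, the decoy receptor for interleukin-13, had no counts in any PBS_CP library and 0.155 to 0.716 CPM in HDM_CP. Against a floor of 3 counts in the smallest PBS_CP library, 0.0531 CPM, it was at least 7.63-fold higher in HDM_CP. The call of Il13ra2 held in 35 of the 36 other settings in which it was tested and was lost with DESeq2. Socs1, a feedback inhibitor of cytokine signalling, rose by 1.05 ± 0.17 without overlap, from a median of 3.72 CPM to 7.59 CPM. Csf2rb, the common beta chain of the receptors for interleukin-3, interleukin-5 and GM-CSF, rose by 0.88 ± 0.16.

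Chemokines of type 2 inflammation and monocyte recruitment rose in 9 of 14 members (median 1.72), and in 9 or 10 when each library was left out. Ccl8, a ligand that attracts monocytes, eosinophils and T helper 2 cells (chromosome 11, 82006011 to 82007625), was at 14.7, 16.0, 39.2, 50.8, 54.5, 70.1 and 81.0 CPM in the HDM_CP libraries. In PBS_CP it was at 0.878, 1.01, 1.25, 1.31, 1.66, 2.01 and 4.64 CPM, the last in PBS_CP 57. The groups did not overlap, and Ccl8 rose by 4.67 ± 0.49 (adjusted p = 6.94e-06), or 5.10 ± 0.50 without PBS_CP 57. The eotaxin genes Ccl11 and Ccl24, whose products recruit eosinophils, rose by 2.96 ± 0.42 and 4.08 ± 0.66. Ccl17, a ligand that recruits T helper 2 cells, rose by 2.14 ± 0.42, with its highest value, 60.2 CPM, in HDM_CP 67.

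Among the 12 largest increases by the naming rule, 8 genes have a promoter entry in RefSeq (GRCm38.p6 build), from 250 bases before to 50 after the start site. They were searched on both strands for the inverted repeats TTCNNNNGAA and TTCNNNGAA, the spacings bound by STAT6 and other STAT proteins. Of the 8 genes, 2 held a match, Cd209e and Chil4, and 14.6% of 32851 RefSeq promoters of that length hold at least 1 of both. The promoters of Cd209e, a C-type lectin gene of macrophages and dendritic cells, and of Ccl8 are shown because both genes rose without overlap between the groups, and 1 holds the repeat while the other does not. Each covers the 250 bases before the start site on the gene's own strand, and capitals mark the match, whose first base lies 79 bases before the start site of Cd209e.
Cd209e, chr8:3854287-3854536, minus strand: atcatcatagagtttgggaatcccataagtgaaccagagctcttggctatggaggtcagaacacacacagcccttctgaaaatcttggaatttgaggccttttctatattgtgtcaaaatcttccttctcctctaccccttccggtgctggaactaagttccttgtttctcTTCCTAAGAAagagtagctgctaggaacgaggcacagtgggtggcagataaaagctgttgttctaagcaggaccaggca
Ccl8, chr11:82114935-82115184, plus strand: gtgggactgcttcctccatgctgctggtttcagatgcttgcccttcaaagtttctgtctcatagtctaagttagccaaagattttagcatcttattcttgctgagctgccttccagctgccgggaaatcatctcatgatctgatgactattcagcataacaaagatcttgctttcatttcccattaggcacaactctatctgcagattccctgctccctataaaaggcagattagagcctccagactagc
Cd209e rose by 4.68 ± 0.71, from 0 to 0.986 CPM in PBS_CP to 1.51 to 10.4 CPM in HDM_CP, and by 6.36 ± 0.68 without PBS_CP 57. The match is a description of these letters and was not tested for binding.

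Acute inflammatory cytokines and neutrophil chemokines rose in 7 of 21 members (median 0.78), and in 11 without HDM_CP 66. The neutrophil-attracting chemokine genes Cxcl5, Cxcl3 and Cxcl1 rose by 3.74 ± 0.56, 3.72 ± 0.71 and 1.75 ± 0.30. Cxcl5 lay at 2.45 to 24.2 CPM in HDM_CP and 0.241 to 1.65 CPM in PBS_CP, without overlap. Il1rn, the interleukin-1 receptor antagonist, rose by 1.21 ± 0.28. Neutrophil genes themselves were called in 4 of 19 members, with a median of 0.66. Mmp8, the neutrophil collagenase, rose by 1.97 ± 0.34, the secondary granule gene Ltf by 2.56 ± 0.49 and the decoy receptor gene Il1r2 by 1.31 ± 0.32. Ltf is also made by airway glands, and the cells behind its reads were not identified.

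Macrophage genes rose in large number. Of 16 genes of alternative macrophage activation 12 rose with a median of 1.11, and 12 or 13 rose when each library was left out. Arg1, the arginase that marks alternative activation (chromosome 10, 24791119 to 24803382), lay at 4.25, 5.93, 6.51, 18.9, 32.0, 64.0 and 95.6 CPM in HDM_CP. In PBS_CP it lay at 1.07 to 3.42 CPM (median 1.78), below every HDM_CP library. Arg1 rose by 4.07 ± 0.65 (adjusted p = 0.000359), and its spread across HDM_CP followed the order of the libraries on the line above, with HDM_CP 98 highest and HDM_CP 45 lowest. Mgl2, a C-type lectin of alternatively activated macrophages and dendritic cells, rose by 1.21 ± 0.15 (adjusted p = 1.94e-05) with a narrower spread, from 38.0 to 82.8 CPM in HDM_CP. Mmp12, the macrophage elastase, which is also outside this list, rose by 3.87 ± 0.77. Its highest library was HDM_CP 98, at 548 CPM against a group median of 56.7 CPM, and without that library the value was 3.17. Of the largest increases, the eosinophil-associated ribonuclease gene Rnase2a rose by 5.78 ± 0.86 and the gluconeogenic enzyme gene Fbp1 by 4.82 ± 0.81. Without PBS_CP 57 these values were 7.65 ± 0.86 and 5.55 ± 0.86. Both of these calls were lost with limma voom with quality weights.

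Genes of recruited and lipid-associated macrophages rose in 17 of 24 members (median 0.81), and in 17 without PBS_CP 57. C1qa, a complement C1q chain made by tissue macrophages, lay at 41.1 to 141 CPM in HDM_CP (median 77.1) and 23.1 to 32.5 CPM in PBS_CP (median 27.4). It rose by 1.71 ± 0.25 (adjusted p = 0.000146), without overlap. Cd14, a lipopolysaccharide co-receptor of monocytes and macrophages, rose by 1.21 ± 0.19, also without overlap. Gpnmb, a glycoprotein gene of phagocytic macrophages, had a value of 1.26 ± 0.42 that did not pass (adjusted p = 0.067). It rested on HDM_CP 98, at 154 CPM against at most 63.9 CPM in the other HDM_CP libraries, and was 0.69 without it, while it passed without HDM_CP 45, 66 or 96. Of 14 genes of resident alveolar macrophages 4 rose (3 without PBS_CP 57) and 2 fell (against 5.6% and 2.27% of all genes), with a median of 0.02. The 2 that fell were lost without any of HDM_CP 49, 67, 97 or 98 or PBS_CP 58, 59, 75, 76 or 101, with 1 lost without HDM_CP 45 or PBS_CP 102. Values over that list ranged from -1.46 to 1.24, and 7 of the 14 were positive. Members of this list were named by smallest p, and the 2 that fell were not among those named. Among the members that rose, the integrin gene Itgax did so by 1.24 ± 0.23 and the lipid-binding protein gene Fabp4 by 0.89 ± 0.22. Atp6v0d2, a subunit of the vacuolar proton pump, rose by 0.91 ± 0.24, a call lost without HDM_CP 98 (adjusted p = 0.0684).

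Eosinophil genes rose in 5 of 9 members (median 1.24), and HDM_CP 67 was the highest library for 4 of them (Prg2, Ccr3, Cebpe and Alox15). Epx, the eosinophil peroxidase gene that defines the cell type, did not pass the filter on low counts. Prg2, the major basic protein gene, lay at 0.106, 0.132, 0.356, 0.453, 0.490, 1.44 and 3.73 CPM in HDM_CP and at 0 to 0.236 CPM in PBS_CP. The groups overlapped, and the highest value was that of HDM_CP 67. Prg2 rose by 3.61 ± 0.92 (adjusted p = 0.0139), was at 2.67 and lost without HDM_CP 67 (adjusted p = 0.0758), and was at 4.23 without PBS_CP 59. Ccr3, the eotaxin receptor, rose by 3.85 ± 0.88, or by 2.85 without HDM_CP 67. Cebpe, a granulocyte transcription factor gene, rose by 3.46 ± 0.78, or by 2.61 without HDM_CP 67. Alox15, a lipoxygenase of eosinophils and macrophages, rose by 3.15 ± 0.62, and Ear2, an eosinophil-associated ribonuclease gene that macrophages also express, by 1.24 ± 0.19. The mean log2 CPM over the list was 0.78 to 3.12 in HDM_CP and -0.21 to 0.51 in PBS_CP. Mast cell and basophil genes were called in 0 of 9 members (against 5.6% of all genes higher and 2.27% lower), with a median of 0.32.

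Genes of antigen-presenting cells rose in both lists examined. Of 11 genes of MHC class II presentation 7 rose (6 without PBS_CP 57) with a median of 0.56, among them the invariant chain gene Cd74 (0.71 ± 0.12) and H2-Ab1 (0.78 ± 0.14). Cd74 lay at 1095 to 2239 CPM in HDM_CP and 923 to 1074 CPM in PBS_CP, without overlap. Dendritic cell genes rose in 12 of 20 members with a median of 0.53. Batf3, a transcription factor of conventional dendritic cells, rose by 1.73 ± 0.27, and Flt3, their growth factor receptor, by 1.07 ± 0.16. Both were higher in every HDM_CP library than in every PBS_CP library. Apol7c, an apolipoprotein L gene of dendritic cells with close paralogs, rose by 1.07 ± 0.21, from 4.07 to 8.54 CPM in PBS_CP to 7.03 to 20.2 CPM in HDM_CP.

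T cell genes rose in part. Of 20 genes of helper and regulatory T cells 7 rose with a median of 0.40, and 4 rose without HDM_CP 67 or without HDM_CP 98. Foxp3, the transcription factor of regulatory T cells, lay at 1.89 to 5.32 CPM in HDM_CP and 1.13 to 1.68 CPM in PBS_CP. It did not overlap and rose by 1.26 ± 0.25 (adjusted p = 0.00188). The inhibitory receptor genes Ctla4 and Pdcd1 rose by 1.78 ± 0.27 and 2.28 ± 0.38, and the costimulatory receptor gene Tnfrsf9 by 2.13 ± 0.34. Of 22 genes of cytotoxic lymphocytes and interferon gamma 2 were called higher (against 5.6% of all genes) and 0 lower, with a median of -0.22. Ifng had a value of -0.87 ± 0.35 that did not pass (adjusted p = 0.139). The 2 called were the chemokine genes Cxcl9 (1.68 ± 0.46) and Cxcl10 (1.42 ± 0.35), which interferons induce, and Cxcl9 was lost without HDM_CP 98 (adjusted p = 0.0649).

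Type I interferon response genes rose in 12 of 20 members (median 0.64), and all 20 had positive values. That number was 5 without HDM_CP 67, the library with the highest score of the list (5.60), next to HDM_CP 66 (5.55). Oas1a, which encodes an antiviral oligoadenylate synthetase, rose by 1.16 ± 0.21, and the antiviral GTPase gene Mx1 by 1.19 ± 0.24. Without HDM_CP 67 both were still called, at 1.05 and 1.07. Mx1 lay at 10.3 to 22.1 CPM in HDM_CP and 4.41 to 8.28 CPM in PBS_CP, without overlap.

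Immunoglobulin genes moved in 1 member. Ighg1, the constant region of immunoglobulin G1 (chromosome 12, 113288860 to 113294143), lay at 0.970, 1.87, 2.11, 26.5, 43.5, 88.7 and 447 CPM in HDM_CP and at 0.306 to 1.05 CPM in PBS_CP (median 0.435). The groups overlapped in 1 HDM_CP library, HDM_CP 96, and HDM_CP 98 lay far above the next library. Ighg1 rose by 7.22 ± 1.13 (adjusted p = 0.000343), or by 5.56 without HDM_CP 98, and the call was lost with limma voom with quality weights. Of 11 constant region genes it was the 1 called (against 5.6% of all genes higher), with a list median of 0.64. Ighe was too weakly expressed to be tested. B cell and plasma cell genes rose in 3 of 20 members with a median of 0.01, namely the transcription factor gene Irf4 (0.76 ± 0.17), the secretory pathway gene Derl3 (1.05 ± 0.25) and the B cell chemokine gene Cxcl13 (1.73 ± 0.42).

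Complement genes rose in 10 of 17 members (9 without PBS_CP 57) with a median of 0.44. C3, the central complement component (chromosome 17, 57510970 to 57535136), lay at 1513 to 3031 CPM in HDM_CP (median 2552) and 528 to 925 CPM in PBS_CP (median 713). It did not overlap and rose by 1.75 ± 0.18 (adjusted p = 3.9e-06). The receptor gene C3ar1 rose by 1.76 ± 0.31 and the properdin gene Cfp by 0.98 ± 0.15. Of 18 acute phase and epithelial antimicrobial genes 4 rose (3 without PBS_CP 57) with a median of 0.53, among them the siderophore-binding protein gene Lcn2 (1.82 ± 0.34) and the protease inhibitor gene Slpi (1.07 ± 0.26). Genes of leukotriene and prostaglandin D2 synthesis and signalling rose in 5 of 14 members with a median of 0.18, including Alox5ap (0.48 ± 0.09), Hpgds (0.96 ± 0.22) and the receptor gene Ptgdr (3.39 ± 0.86). Ptgdr was low in every library, at most 1.48 CPM, and rose by 4.64 ± 0.93 without PBS_CP 57.

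Matrix and remodelling genes rose in 14 of 24 members (12 without PBS_CP 57) with a median of 0.67. Timp1, an inhibitor of metalloproteases, rose by 1.54 ± 0.29, and fibronectin, Fn1, by 0.66 ± 0.13. The protease inhibitor genes Serpina3n and Serpinb2 rose by 1.04 ± 0.15 and 2.21 ± 0.42. Serpina3n lay at 219 to 367 CPM in HDM_CP and 124 to 175 CPM in PBS_CP, without overlap.

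Cell cycle genes had a larger share of members called than any other of the 39 lists, 28 of 30, with a median of 1.13 and 30 positive values. Without PBS_CP 57, 27 were called, with a median of 1.18. The groups overlapped in the mean log2 CPM over the list, with PBS_CP 101 at 3.25 above HDM_CP 45 at 3.05. PBS_CP 101 was nearer to the HDM_CP mean in 18 of the 28 members called without it. Birc5, the mitotic survival gene survivin, lay at 5.53 to 13.6 CPM in HDM_CP (median 8.48) and 2.28 to 5.67 CPM in PBS_CP (median 3.47). The ranges met at their edges, and Birc5 rose by 1.31 ± 0.22. Ube2c, a ubiquitin-conjugating enzyme of mitosis, rose by 1.30 ± 0.22. Genes of the unfolded protein response and secretory chaperones rose in 10 of 17 members (8 without PBS_CP 57), with 1 lower and a median of 0.26, and 6 rose without HDM_CP 97. The 1 lower of 17 (against 2.27% of all genes) was lost without HDM_CP 49, 96 or 98 or PBS_CP 75, 76, 101 or 102. Sdf2l1, an endoplasmic reticulum chaperone cofactor, rose by 1.03 ± 0.13 (adjusted p = 3.57e-05), from 14.2 to 15.9 CPM in PBS_CP to 20.6 to 38.7 CPM in HDM_CP.

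**Figure D3:**
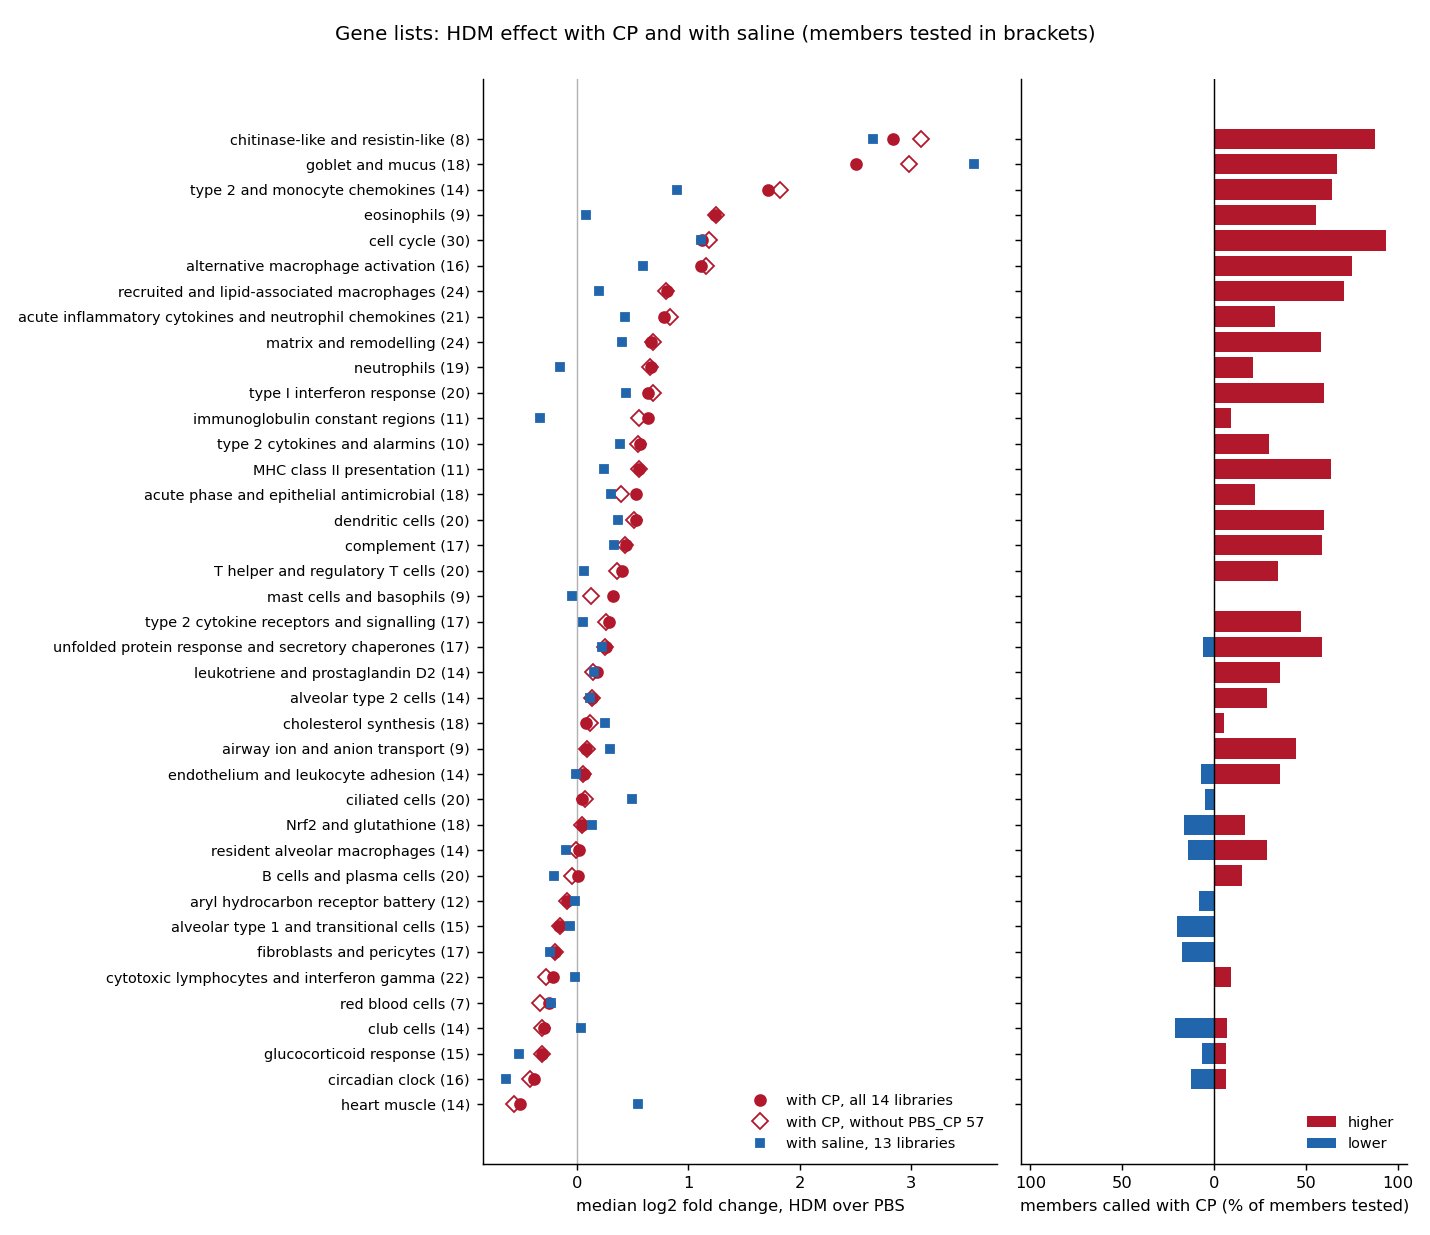
Median log2 fold change of each gene list (left) for HDM_CP against PBS_CP with all 14 libraries, without PBS_CP 57, and for HDM_SAL against PBS_SAL, and the percent of tested members called higher or lower with CP (right). Chitinase-like and resistin-like genes (median 2.84) and goblet genes (2.51) are farthest to the right with CP, and cell cycle genes have the largest share of members called, 28 of 30.

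Genes of lung structural cells were called in both directions. Of 14 alveolar type 2 cell genes 4 rose, including the surfactant protein genes Sftpd (0.81 ± 0.12) and Sftpa1 (0.56 ± 0.08), while Sftpc, a defining marker, was at -0.09 ± 0.06. Scgb1a1, the main secretory product of club cells, had a value of -0.16 ± 0.18 (adjusted p = 0.7), with 9082 to 27196 CPM in HDM_CP and 15942 to 21292 CPM in PBS_CP. Scgb3a1, a secretoglobin of larger airways, rose by 3.41 ± 0.90, from 2.98 to 26.6 CPM in PBS_CP to 11.6 to 223 CPM in HDM_CP. Club cell genes fell in 3 of 14 members and rose in 1 (against 2.27% and 5.6% of all genes), with a median of -0.30. The number lower was 0 without HDM_CP 49, HDM_CP 67, PBS_CP 75 or PBS_CP 76, 1 without HDM_CP 98 and 5 without HDM_CP 45 or HDM_CP 66. The cytochrome P450 genes of club cells among them were Cyp2f2 (-0.63 ± 0.19, adjusted p = 0.0379, or up to 0.0890 without 1 library) and Cyp4b1 (-0.42 ± 0.12, adjusted p = 0.029, or up to 0.0754). Cyp2f2 was lost without HDM_CP 49, 67, 97 or 98 or PBS_CP 59, 75, 76 or 101, and Cyp4b1 without HDM_CP 49 or 67 or PBS_CP 58, 75 or 76.

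Ciliated cell genes were higher in 0 of 20 members with all libraries (against 5.6% of all genes). Without PBS_CP 57, 4 were higher (against 4.96%). In both comparisons 1 was lower (against 2.27% of all genes, or 1.92% without PBS_CP 57), Tppp3 (-0.57 ± 0.12). Alveolar type 1 and transitional cell genes were lower in 3 of 15 with all libraries (against 2.27% of all genes), namely Cav1, Hopx and Rtkn2. That number was 0 without PBS_CP 57, PBS_CP 58, HDM_CP 49 or HDM_CP 67 and 1 without HDM_CP 98. Ager, their defining marker, was at -0.16 ± 0.09 and did not pass. Fibroblast and pericyte genes fell in 3 of 17 (against 2.27% of all genes), and in 2 without PBS_CP 57 (against 1.92%). The number was 1 without HDM_CP 49, 96 or 98 or PBS_CP 101 or 102 and 5 without HDM_CP 66. Inmt, a methyltransferase of lung stroma, fell by 0.64 ± 0.16 on the log2 scale, and Tcf21, a fibroblast transcription factor, fell by 0.38 ± 0.11 in log2 units (adjusted p = 0.0319, lost without HDM_CP 49, 96 or 98 or PBS_CP 75, 101 or 102). Endothelial and adhesion genes rose in 5 of 14 (4 without PBS_CP 57), among them P-selectin, Selp (0.95 ± 0.17), the von Willebrand factor gene Vwf (0.53 ± 0.09) and the venular chemokine receptor gene Ackr1 (2.26 ± 0.58). Of the 14 endothelial and adhesion genes, 1 was called lower (against 2.27% of all genes). That call was lost without HDM_CP 49, 67, 97 or 98 or PBS_CP 58, 59, 76, 101 or 102, while 2 were lower without HDM_CP 66.

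Of the genes with the largest decreases, 3 separated the groups fully. Coro6, an actin-binding coronin gene (chromosome 11, 77353237 to 77361310), was at 1.65, 2.11, 3.42, 3.94, 4.58, 5.70 and 8.29 CPM in HDM_CP and at 9.80, 10.7, 11.2, 11.7, 13.2, 14.7 and 14.9 CPM in PBS_CP. It fell by 1.54 ± 0.23 in log2 units (adjusted p = 0.000178). The lowest libraries were HDM_CP 98 and 49, and the highest HDM_CP library was HDM_CP 66. Pon1, a paraoxonase gene whose product hydrolyses lactones and organophosphates (chromosome 6, 5168090 to 5193946), was at 6.64, 9.27, 11.6, 21.7, 26.1, 27.9 and 30.0 CPM in HDM_CP. It was at 32.8 to 76.0 CPM in PBS_CP (median 41.1) and fell by 1.31 ± 0.29 in log2 units (adjusted p = 0.00522). Gprasp2, which encodes a receptor-sorting protein, was at 1.92 to 3.74 CPM in HDM_CP and 4.55 to 6.12 CPM in PBS_CP. It fell by 0.93 ± 0.22 on the log2 scale.

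Ces1g, a carboxylesterase gene, was at 4.85 to 10.9 CPM in HDM_CP (median 7.64) and 8.24 to 59.6 CPM in PBS_CP, and fell by 1.48 ± 0.33 on the log2 scale. Its highest value was that of PBS_CP 76, and without that library Ces1g was at -0.95 (adjusted p = 0.0155). Its paralog Ces1f was at -0.98 ± 0.29 (adjusted p = 0.0363) and, without PBS_CP 76, at -0.65 with the call lost (adjusted p = 0.127), as it was without HDM_CP 67, 97 or 98 or PBS_CP 75. Reads may have been shared between these paralogs. The sulfotransferase gene Sult1d1 fell by 1.35 ± 0.32 on the log2 scale. Cyp2a5 was at -0.96 ± 0.29 (adjusted p = 0.0398), a call lost without HDM_CP 45, 49, 67 or 98 or PBS_CP 75, 76 or 102. The cystatin family gene Cst8, the fatty acid-binding protein gene Fabp3, the Wnt ligand gene Wnt10b and the growth factor-binding protein gene Igfbp3 fell by 1.36 ± 0.29, 1.02 ± 0.22, 0.90 ± 0.18 and 0.85 ± 0.17 on the log2 scale.

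Targets of the oxidant sensor Nrf2 and of the aryl hydrocarbon receptor, which respond to combustion products, were listed because every lung here had CP. Of 18 Nrf2 and glutathione genes 3 rose and 3 fell with a median of 0.04, and 5 rose and 2 fell without PBS_CP 76, the library with the highest score of that list (6.37, against at most 5.98 in the other PBS_CP libraries). Nqo1, a quinone reductase and target of both pathways, was at 4.50 to 13.3 CPM in HDM_CP and 8.15 to 34.4 CPM in PBS_CP and fell by 1.09 ± 0.28 on the log2 scale. Gstm1, a glutathione transferase gene, fell by 0.64 ± 0.13 and the catalase gene Cat fell by 0.38 ± 0.08 on the log2 scale. The heme oxygenase gene Hmox1 and the glutathione reductase gene Gsr rose, by 0.37 ± 0.09 and 0.40 ± 0.10. Of 12 genes of the aryl hydrocarbon receptor battery 0 rose and 1 fell, Nqo1 (against 5.6% and 2.27% of all genes), with a median of -0.09. Cyp1a1, the most direct readout of that receptor, was at 59.8 to 570 CPM in HDM_CP (median 269) and 41.4 to 1028 CPM in PBS_CP (median 253), a value of -0.62 ± 0.55 (adjusted p = 0.603). The groups overlapped over most of their ranges, and the spread of Cyp1a1 within each group limits the precision of the comparison.

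**Figure D4:**
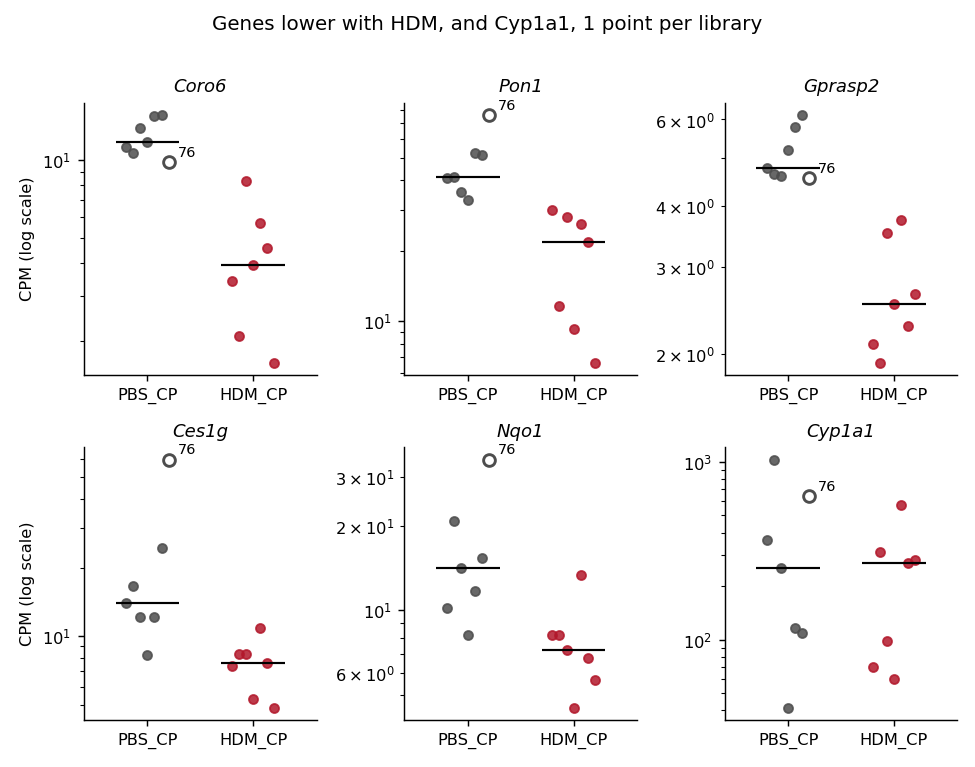
CPM on a log scale in the 7 PBS_CP (grey) and 7 HDM_CP (red) libraries for 5 genes called lower and for Cyp1a1, which was not called, with 1 point per library, a line at the group median and PBS_CP 76 as an open circle. The groups do not overlap for Coro6, Pon1 and Gprasp2, PBS_CP 76 is the highest point for Ces1g, Pon1 and Nqo1, and the Cyp1a1 range of HDM_CP lies within that of PBS_CP.

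Clock and glucocorticoid genes were called in both directions, where 5.6% of all genes rose and 2.27% fell. Of 16 clock genes 1 rose and 2 fell with a median of -0.38 (3 fell without PBS_CP 57 and 4 without HDM_CP 66), against 3 and 11 with a median of -0.64 between HDM_SAL and PBS_SAL. The nuclear receptor gene Nr1d1 fell by 0.73 ± 0.18 and Cry2 fell by 0.39 ± 0.10 on the log2 scale, and Nfil3, a repressor active at the opposite phase, rose by 0.88 ± 0.20. Per1 was at -0.73 ± 0.28 and did not pass (adjusted p = 0.115). Of 15 glucocorticoid response genes 1 rose and 1 fell, against 1 and 7 in the saline mice. The 1 that rose with CP was Lcn2, which is also in the acute phase list. The 1 that fell with CP was lost without HDM_CP 45, 49, 67 or 98 or PBS_CP 75 or 76, while 3 fell without HDM_CP 66 and 2 without PBS_CP 102. Zbtb16, a glucocorticoid-induced transcription factor gene, was at 0.20 ± 0.37 with CP and at -2.16 with saline, a difference of 2.36 ± 0.54 between the effects that did not pass over all genes (adjusted p = 0.687). Of 18 cholesterol synthesis genes 1 rose (against 5.6% of all genes), with a median of 0.08. That number was 0 without HDM_CP 49, 67 or 98 or PBS_CP 75, 76 or 101, 2 without HDM_CP 45 and 3 without PBS_CP 59. Of 14 heart muscle and 7 red blood cell genes 0 were called (against 5.6% of all genes higher and 2.27% lower), with medians of -0.51 and -0.25.

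The HDM effect with CP was set beside the HDM effect without CP, which uses other libraries in both groups. Between HDM_SAL and PBS_SAL, 786 of 24629 genes rose with HDM (3.19%) and 553 fell (2.25%). With limma on log2(TPM + 1), TPM being transcripts per M, this split turned to 521 higher and 849 lower. Of the genes that rose with CP 469 also rose with saline, which is 34.0% of the CP list and 59.7% of the saline list. Of the genes that fell, 136 were shared, 24.3% and 24.6% of the lists. Of the 1378 genes that rose with CP 1310 (95.1%) had a positive value with saline, where 52.7% of all genes did, and 523 of the 560 that fell (93.4%) had a negative one. The medians of the genes called with CP were 0.63 with CP and 0.35 with saline for those that rose, and -0.30 and -0.19 for those that fell. These medians favour CP, since the genes were chosen there. Only 1 gene was called in opposite directions, Ank, a gene of pyrophosphate transport. Ank rose by 0.23 ± 0.06 with CP and was at -0.24 with saline. The call with CP was lost without HDM_CP 67, PBS_CP 57 or PBS_CP 76.

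A test of the difference between both HDM effects, the interaction term, called 0 of 24629 genes (0%) with edgeR. An unadjusted p under 0.05 was found for 1571, and about 1 in 20 tests has such a p where nothing differs. The smallest adjusted p was 0.318. Without PBS_CP 57 the test called 0 as well, with 1285 under 0.05 unadjusted and a smallest adjusted p of 0.912. DESeq2 called 4 genes higher and 1 lower, and edgeR called 1 when HDM_SAL 72 was left out. The values below are therefore given side by side and are not shown to differ. Recruited macrophage genes were called in 17 of 24 members with CP and 3 with saline, eosinophil genes in 5 and 0 of 9, MHC class II genes in 7 and 0 of 11, type I interferon genes in 12 and 2 of 20, and matrix genes in 14 and 2 of 24. Goblet genes were called in 12 of 18 with CP and 13 with saline, chitinase-like and resistin-like genes in 7 and 7 of 8, and cell cycle genes in 28 and 23 of 30. Among single genes, Ighg1 was at 7.22 with CP and 1.84 with saline, Mmp12 at 3.87 and 1.61, Arg1 at 4.07 and 2.36, and Il33 at 1.17 and 0.67. Clca1 was at 6.72 without PBS_CP 57 and at 7.51 with saline.

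**Figure D5:**
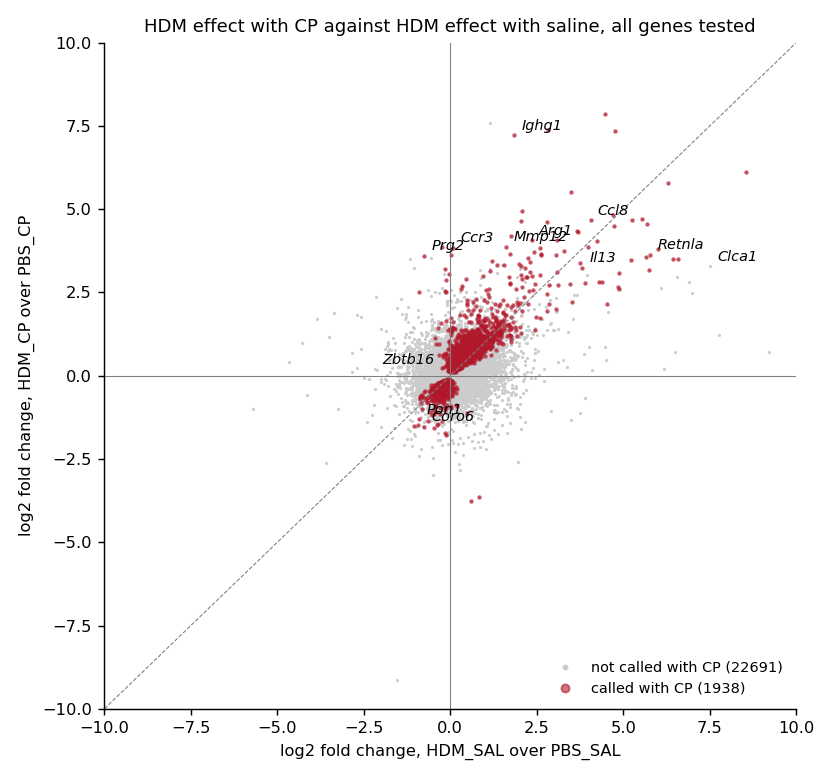
Log2 fold change of HDM_CP over PBS_CP against that of HDM_SAL over PBS_SAL for the 24629 genes tested, with the 1938 genes called with CP in red and the others in grey, and a dashed line of equal change. Most red points lie in the quadrants where both values have the same sign, and the interaction test called 0 genes.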

How the data were processed

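PolyA-selected RNA of 27 whole lungs was sequenced, with 20 M read pairs planned per library per the labels' protocols. The submitters' processing notes name StringTie 2, STAR and the GRCm39 build, with the version of STAR not given in the sources used here. The authors deposited estimated counts and TPM for 56941 genes, and 310 genes without a symbol held 0.0602% of the counts. The deposited estimated counts sum to 56.3 M to 84.5 M per library, about 4 times the pairs planned, so that they are not 1 count per planned pair. Counting error may therefore be understated for weakly expressed genes, which was not tested. With counts divided by 4, 1506 genes were higher and 651 lower in HDM_CP against PBS_CP, where the counts as deposited gave 1378 and 560. The deposited TPM, which carry no depth, were used only in alternatives. Strand is not stated for the counting, so overlapping genes cannot be told apart.

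Estimated counts were rounded and fitted with edgeR 4.0.16 in R 4.3.3: 4 group means, all 27 libraries, trimmed mean of M values, filterByExpr with a minimum count of 10, robust quasi-likelihood F tests (two-sided), Benjamini-Hochberg adjustment over all genes and a threshold of 0.05. The fit was repeated on 26 libraries without PBS_CP 57. CPM carry no prior count, list scores are means of log2 CPM with a prior count of 2, and SE were derived from the F statistic. The script was tested on simulated counts.

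The comparison, the 39 gene lists and the naming rule were chosen with earlier results of these data known, and lists share members. Named genes were the 12 largest increases and 12 largest decreases called with and without PBS_CP 57 (mean log2 CPM of at least 1, without predicted genes and receptor segments), up to 5 genes of each list by p, a fixed set of allergy and combustion genes, the 6 smallest interaction p and the 8 genes moved most by PBS_CP 57. From these 169, the genes in the text were selected after their values were seen. Alternatives were other scaling, DESeq2 1.42.0, limma 3.58.1 (voom with quality weights, log2 TPM), other filters, a fold limit, counts divided by 4, a block for the 3 runs of library numbers and leaving out each library. Leaving out the 3 libraries under 60 M was added after the data were seen.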

Additional observations from a re-analysis of the deposited data

Results flagged for a closer look

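In each group of 7, the highest or lowest library was marked when its gap to the next relative to the group's range exceeded Dixon's 95% critical value. Of 322 groups of values examined (list scores and named genes), 46 were marked. For normally distributed values chance marks about 1 in 20 groups, but single genes were examined as CPM without logs. Every mark of a single gene was a highest library. The genes were also named after their values were seen, some of them because PBS_CP 57 moved them, and many rise together. For these reasons the number of marks cannot be read against that share. Nothing was tested about why a library stood apart.

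PBS_CP 57 accounted for 22 of the 46 marks, each time as the highest PBS_CP library. Its list scores (mean log2 CPM) were 3.239 for goblet and mucus genes, 4.323 for chitinase-like and resistin-like genes and 4.478 for ciliated cells. Epithelial and mucus genes marked in PBS_CP 57 were Clca1 at 515.1 CPM, Muc5ac at 42.59 CPM, Muc5b at 89.26 CPM, Fcgbp at 57.92 CPM, Fer1l6 at 15.48 CPM, Pigr at 149.9 CPM, Slc26a4 at 28.73 CPM and Sftpd at 619.0 CPM. Among genes of alternative activation and type 2 inflammation, it held Retnla at 1288 CPM, Chil4 at 59.53 CPM, Chia1 at 204.3 CPM, Rnase2a at 2.814 CPM, Fbp1 at 2.364 CPM, Cd209e at 0.9863 CPM and Ptgdr at 0.2756 CPM. Of the chemokines it held Ccl8 at 4.642 CPM, Ccl17 at 7.369 CPM, Ccl24 at 1.001 CPM and Cxcl5 at 1.654 CPM.

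HDM_CP 67 was the highest HDM_CP library for Prg2 (3.732 CPM), Ccr3 (12.33 CPM), Cebpe (3.636 CPM), Alox15 (31.26 CPM), Ccl17 (60.16 CPM), Serpinb2 (4.738 CPM) and Il4 (1.487 CPM), 4 of them eosinophil list members. HDM_CP 98 was highest for Ighg1 (447.1 CPM), Gpnmb (153.7 CPM), Atp6v0d2 (96.91 CPM), Fabp4 (20.35 CPM) and Slpi (110.6 CPM). HDM_CP 66 had the lowest HDM_CP scores for goblet and mucus genes (2.115) and for chitinase-like and resistin-like genes (4.647), HDM_CP 97 the lowest for mast cells and basophils (1.09), and HDM_CP 96 held the highest Nqo1 (13.32 CPM). PBS_CP 76 had the highest PBS_CP score for Nrf2 and glutathione genes (6.369) and the highest Ces1g (59.56 CPM), Sult1d1 (7.294 CPM), Cat (329.4 CPM), Gstm1 (468.8 CPM) and Fabp4 (8.54 CPM). PBS_CP 101 was highest for Pdcd1 (0.884 CPM) and Il21 (0.1071 CPM).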

How the results depend on the processing

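Of the 109 genes the text gives as called with all libraries, 86 were called under every setting in which they were tested. The other 23 were lost under at least 1. Most genes were tested in 40 other settings, but Cebpe and Prg2 in 38, Ptgdr and Il13ra2 in 36 and Il21 in 35. Of 12 not called, Clca1, Fer1l6 and Gpnmb passed under some settings. The median over all genes was 0.00014 with median-of-ratios scaling and -0.0079 with upper-quartile scaling, against 0.0019. With log2(TPM + 1), another measure, it was -0.020. Genes higher in HDM_CP numbered 403 by at least 2-fold and 825 with log2(TPM + 1) without a filter, against 1378. Genes lower numbered 22 by at least 2-fold, 925 with limma voom with quality weights, 336 with no filter and 369 with log2(TPM + 1) without a filter, against 560. Without PBS_CP 57 the numbers higher were 425 by at least 2-fold and 715 with log2(TPM + 1) without a filter. Those lower were 25, and 798 with DESeq2, 845 with voom and 304 with log2(TPM + 1) without a filter. For HDM_SAL against PBS_SAL, 290 were higher by at least 2-fold, 521 with log2(TPM + 1) and 330 without its filter. Those lower were 16 by at least 2-fold, 888 with DESeq2, 835 with voom, 274 with no filter, 849 with log2(TPM + 1), 846 with log2(TPM + 0.1) and 343 with the runs as a block. The interaction had 4 higher and 1 lower with DESeq2. Leaving out each library gave 950 to 1617 higher and 257 to 983 lower with all libraries, and 921 to 1528 and 241 to 898 without PBS_CP 57. It gave 406 to 959 and 196 to 746 for the saline mice, and 0 to 1 and 0 to 0 for the interaction. With CP, Zbtb16, which was not called, changed sign with log2(TPM + 0.1) (-0.0078) and without HDM_CP 66 (-0.079), with a highest value of 0.329 when 1 library was left out. Without PBS_CP 57 it did so with voom (-0.034), log2(TPM + 1) with and without a filter (-0.033 in both), log2(TPM + 0.1) (-0.050) and without HDM_CP 66 (-0.117), with a highest value of 0.290. The cause of these shifts was not tested. No paired analysis was possible because the groups share no library numbers. With a block for the 3 runs of library numbers, which the labels do not call batches, 1300 genes were higher and 567 lower with CP. Depth limits genes below about 1 CPM, such as Prg2, Il13 and Il21, where a few counts set the fold change.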
